A study of Rattus norvegicus with 6 samples.

Results

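The microRNAs (miRNAs) described here are the miR-17 seed family of the rat (rno-miR-17-5p, rno-miR-20a, rno-miR-20b-5p, rno-miR-93 and rno-miR-106b) together with rno-miR-18a, which is cut from the same primary transcript as miR-17-5p and miR-20a. The prefix rno, for rat, is dropped from here on. They were taken by name from the miRNA probes of an Agilent rat array, and they are 6 of the 677 miRNAs on it. Their names, not their signals, put them in this set, although the names were chosen with earlier results of these data known. The samples were plasma RNA of 6 male Wistar rats, with 1 array per animal and 1 slide for all 6 arrays. Vehicle animals (n = 3) received 0.9% saline into the peritoneum, and thioacetamide animals (n = 3) received 100 mg/kg thioacetamide in the same saline by the same route. Plasma was taken 24 h after dosing, and 125 µl of each plasma was extracted. The ages of the animals are not given in the sources used here. The labels record a separate body weight for each array, and each array was taken as its own animal.

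Thioacetamide is a liver toxicant that hepatocytes turn into reactive metabolites. A miRNA guides an Argonaute protein to messenger RNAs, mainly through its seed, the bases near its 5′ end, so miRNAs with a common seed share many targets. The miR-17 family is known for promoting cell division and survival by repressing cell cycle inhibitors such as Cdkn1a and the pro-apoptotic Bcl2l11, and it is expressed in blood-forming cells and in many other tissues. In plasma, miRNAs travel in vesicles and in protein complexes that cells release or lose when damaged. Fewer releasing cells and less RNA from each cannot be told apart in such samples.

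The mature sequences are shown because they define the family and because the members differ by few bases, which bears on what the probes can tell apart. They come from RefSeq (assembly GRCr8), where all 6 members were matched, and are written 5′ to 3′ with the seed (bases 2 to 8) in capitals.
miR-17-5p: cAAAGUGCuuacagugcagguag
miR-20a: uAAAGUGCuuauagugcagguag
miR-20b-5p: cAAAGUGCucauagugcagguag
miR-93: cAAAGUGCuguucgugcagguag
miR-106b: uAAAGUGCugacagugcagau
miR-18a: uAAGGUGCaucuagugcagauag

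Of the 693 mature miRNA names in the RefSeq table, 5 held the seed of miR-17-5p, and these are the 5 family members. The seed of miR-18a was held by miR-18a alone. Relative to miR-17-5p, and counting from 1 at the 5′ end, miR-18a carries A4G inside the seed. miR-20a differs from miR-17-5p by C1U and C12U, and miR-20b-5p differs from it by U10C and C12U. miR-93 differs from miR-17-5p at 4 positions. miR-106b, which has 21 bases where the others have 23, differs from it at 3 of the 21 compared.

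In GRCr8 the members lie in 3 clusters. The miR-17-92 cluster spans chr15:98587848-98588632 and has 6 hairpins. It holds the mature miR-17-5p at chr15:98587861-98587883, miR-18a at chr15:98588000-98588022 and miR-20a at chr15:98588318-98588340, all on the plus strand. The miR-106a-363 cluster spans chrX:137342777-137343647 and has 5 hairpins. It holds miR-20b-5p at chrX:137343239-137343261 on the minus strand, and RefSeq also places the mature miR-17-5p sequence in its Mir106a hairpin, at chrX:137343615-137343637. Signal named miR-17-5p can therefore come from either chromosome. The miR-106b-25 cluster spans chr12:22156641-22157134 and has 3 hairpins, with miR-93 at chr12:22156894-22156916 and miR-106b at chr12:22157103-22157123, both on the minus strand. The hairpins of miR-93 and miR-106b lie inside the span of Mcm7, which encodes a subunit of the replicative DNA helicase. Whether they fall in its exons or introns was not analysed here.

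Each member had 2 probes with 10 spots each on every array. All 12 probes pair without mismatch with the 3′ end of their own member. The longer probe of each pair is given here, as listed in the scanner files. Capitals mark the bases that mismatch the other member nearest to the probe. That member is miR-20a for the probes of miR-17-5p, miR-18a, miR-20b-5p and miR-93, and miR-17-5p for those of miR-20a and miR-106b. The probes of miR-20a and miR-93 are equally near to miR-20b-5p, which the capitals do not show.
miR-17-5p probe: ctacctgcactGtaag
miR-20a probe: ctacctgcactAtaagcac
miR-20b-5p probe: ctacctgcactatGagcact
miR-93 probe: ctacctgcacGaACag
miR-106b probe: aTctgcactgtCagcac
miR-18a probe: ctaTctgcactaGaTgcac

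The probes of miR-17-5p, miR-20a and miR-20b-5p are 1 mismatch away from another member. Those of miR-106b are 2 mismatches away from miR-17-5p, and those of miR-93 and miR-18a are 3 away from the nearest member. How much signal neighbouring members shared was not tested, so the values of miR-17-5p, miR-20a and miR-20b-5p are uncertain in that respect.

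The values are background-subtracted spot intensities on a linear scale, averaged over the unmarked spots of a probe and summed over the 2 probes of a member. A member was called detected on an array when more than 50% of the unmarked spots of either probe were well above background. The arrays differed in background: the spread of the negative control spots (normal-scaled median absolute deviation) ran from 34.6 to 115 on the 3 arrays of slide columns 1 and 2 (vehicle 2, vehicle 3 and thioacetamide 1), against 13.9 to 29.8 in columns 3 and 4 (vehicle 1, thioacetamide 2 and thioacetamide 3). Between 212 (vehicle 3) and 1344 (thioacetamide 3) miRNA spots per array were well above background, and thioacetamide 1 had 279. All 6 members were detected on vehicle 1, 3 on vehicle 2, 4 on thioacetamide 2 and 5 on thioacetamide 3. No member was detected on vehicle 3 or thioacetamide 1, and the fitted changes and the ratio to miR-93 are also given without both arrays. Shares, marker sums, correlations and cluster mates are given over all 6 arrays. The lowest probe signal called detected was 153 on vehicle 3 and 445 on thioacetamide 1, while it was between 19.6 and 46.4 on the arrays in columns 3 and 4. When a member was not detected on the noisier arrays, a low level and a high limit of detection therefore cannot be told apart.

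miR-17-5p, the family's founding member, was at the edge of detection. Its unscaled signals were 56.1, 35.9 and -17.3 on vehicle 1, 2 and 3, and -89.0, 43.1 and 69.1 on thioacetamide 1, 2 and 3. It was detected on vehicle 1 and thioacetamide 3 only, and the groups overlapped. The negative sums came from its shorter probe, which was detected on no array and read -101 on thioacetamide 1. miR-17-5p was not among the miRNAs tested, which had to be detected on at least 3 of the 6 arrays. When miRNAs detected on 1 array or more were admitted, its fitted log2 change was 0.05 ± 0.17 (SE, 3 arrays per group, limma adjusted p = 0.830). On vehicle 3 and thioacetamide 1 its scaled signal had been raised to a floor set for dim values, so this value and its SE partly reflect that floor.

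miR-18a, known to repress Ctgf and a member of a separate seed family, was dimmer still. Its unscaled signals were 67.8, 11.4 and -25.4 on the vehicle arrays and -71.4, 9.80 and 7.92 on the thioacetamide arrays. Only vehicle 1 held it well above background, and there its longer probe had all 10 spots above. No fold can be stated, because the limit of detection on the thioacetamide arrays lay above the mean vehicle signal. With the looser filter its fitted log2 change was -0.22 ± 0.22 (SE, 3 arrays per group, limma adjusted p = 0.572). On 5 arrays, all but vehicle 1, its scaled signal had been raised to the floor set for dim values. The fitted value therefore rests on vehicle 1 alone and is no measure of a change.

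miR-20a, a repressor of E2f1 and of Bcl2l11, was the member of the chromosome 15 cluster with enough signal to compare. Its unscaled signals were 262, 223 and 126 on the vehicle arrays and 304, 173 and 211 on the thioacetamide arrays. The highest value was on thioacetamide 1 and the lowest on vehicle 3, the arrays on which it was not detected, and the groups overlapped. The unscaled mean was 204 ± 70.1 (SD, n = 3) in vehicle and 229 ± 67.6 in thioacetamide, a ratio of 1.12. After scaling, the log2 signals were 8.13, 8.17 and 7.66 in vehicle and 7.06, 7.80 and 7.40 in thioacetamide, which overlapped again. The log2 change, thioacetamide minus vehicle, was -0.57 ± 0.38 (SE, n = 3 per group, 95% interval -1.47 to 0.34, limma adjusted p = 0.304).

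miR-20b-5p, the member unique to the X chromosome cluster, was detected on vehicle 1, thioacetamide 2 and thioacetamide 3, which is the minimum for testing. Its unscaled signals were 98.8, 97.5 and 68.1 in vehicle and 179, 59.8 and 84.5 in thioacetamide. The groups overlapped, with the highest value on thioacetamide 1, and the means were 88.1 ± 17.3 and 108 ± 63.0 (SD, n = 3 each). After scaling, the log2 signals were 6.72, 6.97 and 6.77 in vehicle and 6.30, 6.27 and 6.08 in thioacetamide. Every thioacetamide array then lay under every vehicle array, although the sign of the difference turned when arrays were left unscaled, scaled to spike-ins or scaled without the 3 clusters. The fitted log2 change was -0.60 ± 0.32 (SE, n = 3 per group, 95% interval -1.38 to 0.17, limma adjusted p = 0.220).

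miR-93, which shares its primary transcript with miR-106b and miR-25, was detected on 2 arrays of each group. Its unscaled signals were 146, 135 and 68.1 in vehicle and 165, 88.8 and 159 in thioacetamide. The groups overlapped, with means of 116 ± 42.1 and 138 ± 42.3 (SD, n = 3 each). The scaled log2 signals were 7.29, 7.44 and 6.76 in vehicle and 6.18, 6.84 and 6.99 in thioacetamide, which overlapped as well. The log2 change was -0.49 ± 0.40 (SE, n = 3 per group, 95% interval -1.46 to 0.47, limma adjusted p = 0.398).

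miR-106b, a repressor of Cdkn1a, had the largest difference among the members. Its unscaled signals were 392, 314 and 173 in vehicle and 294, 164 and 129 in thioacetamide. The groups overlapped on that scale, since thioacetamide 1 lay above vehicle 3, and the means were 293 ± 111 and 196 ± 86.9 (SD, n = 3 each), a ratio of 0.669. After scaling, the log2 signals were 8.71, 8.66 and 8.11 in vehicle and 7.01, 7.72 and 6.69 in thioacetamide, so that all thioacetamide arrays lay under all vehicle arrays. The scaled mean log2 signal was 8.49 ± 0.33 in vehicle and 7.14 ± 0.53 in thioacetamide (SD, n = 3 each). The log2 change was -1.35 ± 0.42 (SE, n = 3 per group, 95% interval -2.36 to -0.33), a scaled signal 2.55-fold lower, and it did not pass the threshold (unadjusted p = 0.0169, limma adjusted p = 0.0686). By p it was 14th of the 59 tested miRNAs, and by change it was the 2nd lowest. Its longer probe, detected on 4 arrays, alone gave a scaled log2 difference of -1.30. The shorter probe of miR-106b was detected on vehicle 1 alone, so it gives no second measure.

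**Figure D1:**
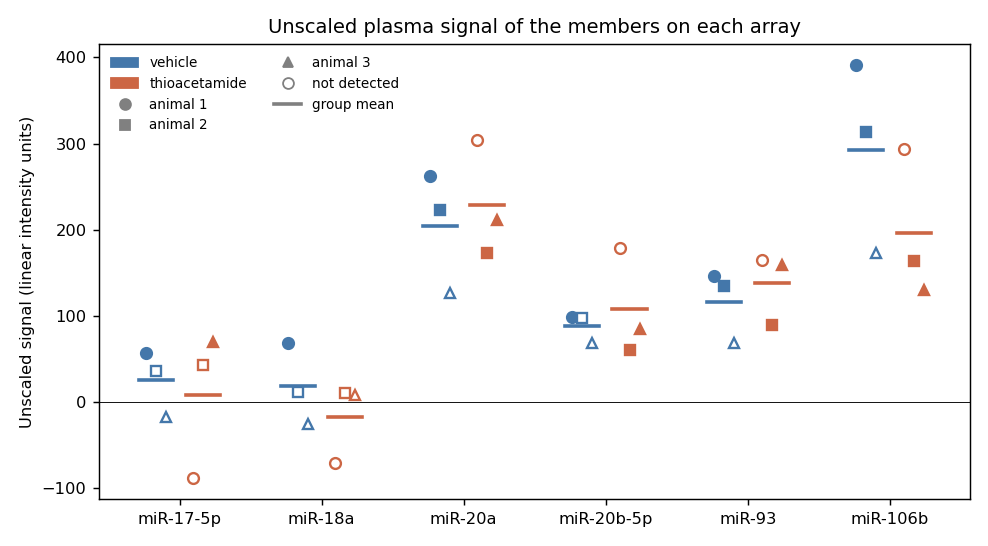
Unscaled signal (linear intensity units, vertical axis) of the 6 members on each array, with vehicle in blue and thioacetamide in orange, the marker shape giving the animal, open markers arrays on which the member was not detected, and bars the group means. The groups overlap for every member, and miR-17-5p and miR-18a scatter around 0.

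**Figure D2:**
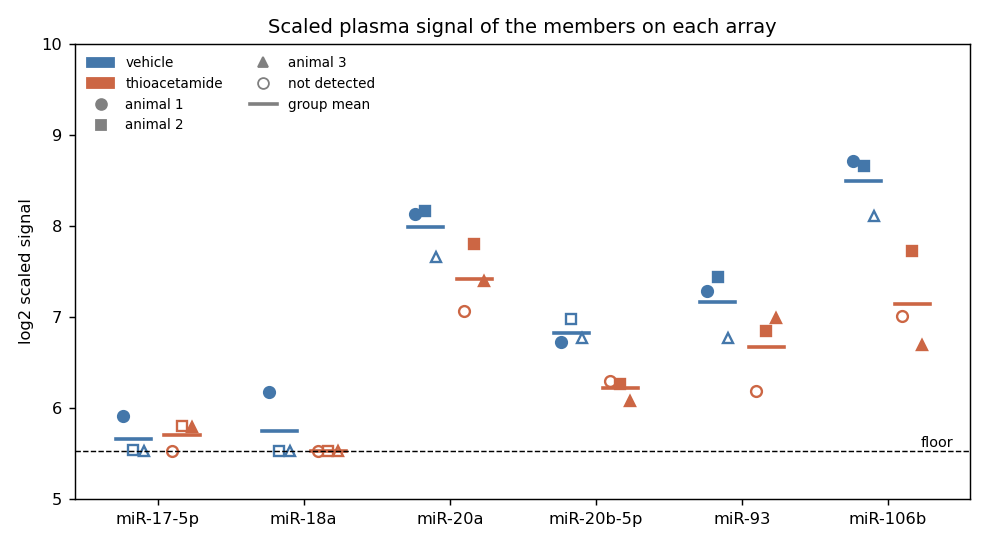
The same members as log2 signal after scaling each array, with the floor of 5.53 dashed, open markers not detected and bars the group means. The groups separate for miR-20b-5p and miR-106b; without scaling they overlap.

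As a group, 0 of the 4 tested members passed the limma threshold (adjusted p under 0.05), while 10 of all 59 tested miRNAs did (16.9%), 9 higher and 1 lower. Before adjustment, 1 member had a limma p under 0.05 (miR-106b, lower), and so did 16 higher and 5 lower miRNAs among all tested. The groups did not overlap for 2 of the 4 tested members, beside 22 of 59 tested miRNAs (37.3%). Both of these members were lower, as were 6 of the 59 (10.2%). The median log2 change of the 4 tested members was -0.58, against 0.45 over all tested, and all 4 fitted values were negative, as were 24 of the 59. These counts cover the tested members only, since miR-17-5p and miR-18a did not pass the filter.

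The sign of 3 of these 4 values depended on how the arrays were scaled. The scale of each array was the 75th percentile of 12 probes, those detected on every one of the 6 arrays. These belong to 8 miRNAs, of which miR-19b, miR-92a and miR-25 are cluster mates of the members and miR-16 and miR-451 are erythrocyte markers, and the factors ran from 0.626 to 1.25 except for 2.27 on thioacetamide 1. Without scaling, which compares equal plasma volumes, the log2 changes were 0.19 for miR-20a, 0.15 for miR-20b-5p, 0.27 for miR-93 and -0.59 for miR-106b. Scaled to the labelling spike-in probes, they were 0.36, 0.27, 0.39 and -0.42 in the same order. Leaving the 3 clusters out of the scaling probes gave 0.56, 0.52, 0.63 and -0.22. miR-106b thus had a negative value under every scaling run, and miR-20a, miR-20b-5p and miR-93 turned positive under these 3. No member passed the threshold under any of the 3. The median over all tested miRNAs moved by 0.52 without scaling, by 0.69 with the spike-ins and by 1.06 without the clusters, so the whole set shifted together with the members.

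**Figure D3:**
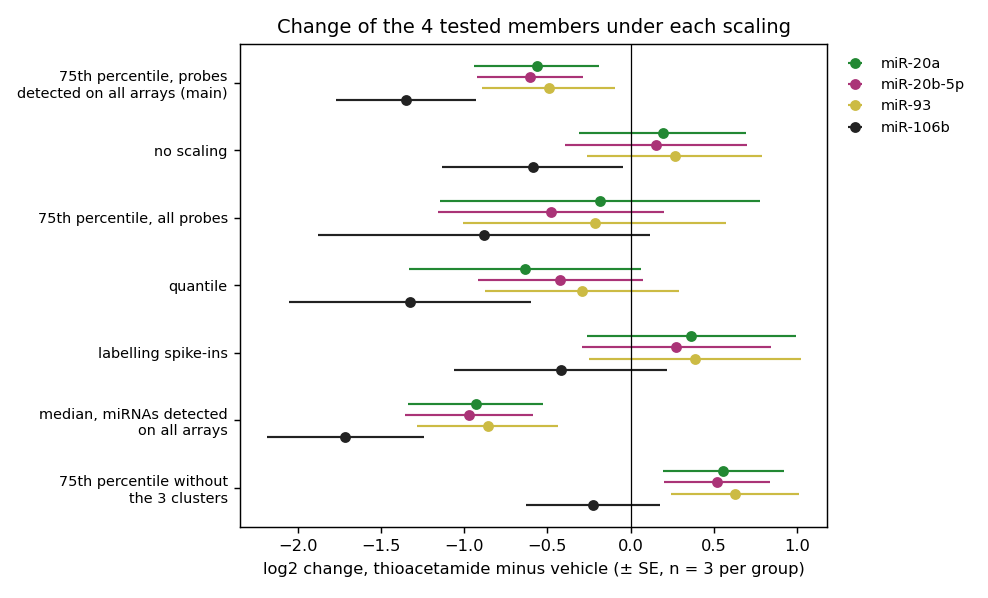
Log2 change (thioacetamide minus vehicle, horizontal axis, points with SE bars, n = 3 per group) of the 4 tested members under 7 scalings of the arrays. miR-106b lies left of 0 in each, while miR-20a, miR-20b-5p and miR-93 lie right of 0 when unscaled, scaled to spike-ins or scaled without the 3 clusters.

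Vehicle 3 and thioacetamide 1 had the fewest spots above background, and without both the outcome depended on how the remaining 4 arrays were processed. When scaling, floor and the set of tested miRNAs were all taken anew from these 4 arrays, with 25 scaling probes, all 4 tested members passed the threshold as lower. Their log2 changes were -2.21 for miR-106b (limma adjusted p = 0.00889), -1.40 for miR-20b-5p (0.0208), -1.28 for miR-20a (0.0325) and -1.18 for miR-93 (0.0390). In that fit 29 of 52 miRNAs passed (55.8%), 18 higher and 11 lower. The longer probes of miR-106b, miR-20a and miR-93 were detected on all 4 arrays of that fit. They were thus among its scaling probes and helped to set their own scale. When the same arrays were left out but the scaling, floor and tested miRNAs of the 6 arrays were kept, 0 of the 4 members passed, with log2 changes of -1.48 for miR-106b, -0.67 for miR-20b-5p, -0.55 for miR-20a and -0.45 for miR-93, and 21 of 59 miRNAs passed. Which of these steps moved the calls was not tested. Both fits were added after the data had been seen. Left out alone, vehicle 3, thioacetamide 1 or thioacetamide 2 brought miR-106b past the threshold, at -2.31 (limma adjusted p = 0.0308), -1.87 (0.0229) and -1.64 (0.0419), and without thioacetamide 1 miR-20b-5p passed too, at -1.23 (0.0190). miR-106b stayed short of the threshold without vehicle 1, vehicle 2 or thioacetamide 3. The adjusted p of miR-106b over all 30 alternatives ran from 0.00889 to 0.722.

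Unscaled, the direction differed between the sides of the slide. In columns 1 and 2 (2 vehicle arrays, 1 thioacetamide array) the unscaled log2 difference was positive for all 4 tested members, at 0.86 for miR-20a, 1.14 for miR-20b-5p, 0.79 for miR-93 and 0.34 for miR-106b. In columns 3 and 4 (1 vehicle array, 2 thioacetamide arrays) it was negative for all 4, at -0.46, -0.48, -0.30 and -1.43 in the same order. After scaling, the differences were negative on both sides for these 4 members. They were -1.37 and -1.50 for miR-106b, -0.57 and -0.55 for miR-20b-5p, -0.85 and -0.53 for miR-20a, and -0.92 and -0.37 for miR-93, columns 1 and 2 given before columns 3 and 4. With the side as a block the log2 change of miR-106b was -1.43 (limma adjusted p = 0.0535).

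A ratio of 2 miRNAs on the same array does not depend on the scaling. The log2 ratio of miR-106b to its cluster partner miR-93 was 1.42, 1.22 and 1.34 on the vehicle arrays and 0.83, 0.88 and -0.30 on the thioacetamide arrays. All thioacetamide arrays lay under all vehicle arrays, with thioacetamide 3 lowest. The mean was 1.33 ± 0.10 in vehicle and 0.47 ± 0.67 in thioacetamide (SD, n = 3 each), a ratio 1.81-fold lower. The difference of -0.86 had an exact two-sided permutation p of 0.1, which is the smallest that 3 against 3 arrays can give. It was -0.45 in columns 1 and 2 and -1.13 in columns 3 and 4. Without vehicle 3 and thioacetamide 1 it was -1.03. Without thioacetamide 3 it was -0.47, and with normexp background correction, which adds an offset to all signals, it was also -0.47.

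Further pairs were computed after the data had been seen, all with miR-106b, the member with the largest difference. How often ratios of other tested miRNAs separate the groups was not counted. Because miR-106b was chosen for its difference, these ratios and their p values are no separate evidence of it. The log2 ratio of miR-106b to miR-20a was 0.58, 0.49 and 0.45 in vehicle and -0.05, -0.07 and -0.70 in thioacetamide, a difference of -0.78 with no overlap (exact permutation p = 0.1). The ratio to miR-25, the remaining hairpin of the chromosome 12 cluster, differed by -1.12, again with no overlap (exact permutation p = 0.1). The ratio to miR-20b-5p differed by -0.74 with overlapping groups (exact permutation p = 0.2). Over these 4 pairs, which all contain miR-106b and so are not independent, the Benjamini-Hochberg adjusted exact p was 0.133 for the separated ones and 0.2 for the last. Part of each ratio on vehicle 3 and thioacetamide 1 rests on signals of miR-106b, miR-93, miR-20a and miR-20b-5p that were not well above background. miR-20b-5p was not detected on vehicle 2 either.

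**Figure D4:**
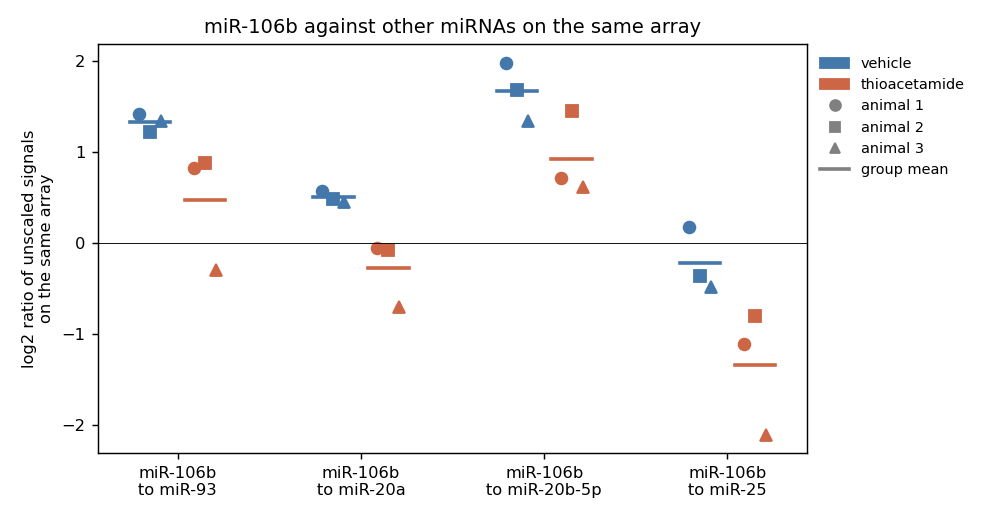
Log2 ratio of the unscaled signal of miR-106b to that of miR-93, miR-20a, miR-20b-5p and miR-25 on the same array (vertical axis), vehicle in blue, thioacetamide in orange, the marker shape giving the animal and bars the group means. The thioacetamide arrays lie under all vehicle arrays for every pair except miR-106b to miR-20b-5p, where thioacetamide 2 overlaps them.

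miR-17-5p and miR-20a, which share a transcript and a seed, were both detected on 2 arrays, and miR-18a and miR-17-5p on 1, so these ratios were not tested. The log2 ratio of miR-17-5p to miR-20a, with dim signals raised to the floor, averaged -2.33 ± 0.27 in vehicle and -1.72 ± 0.25 in thioacetamide (SD, n = 3 each), values that the floor sets on vehicle 3 and thioacetamide 1. Levels of different probes are not comparable as amounts, so the order of the members' signals is no order of their abundance.

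The tested members made up a smaller part of the signal on all thioacetamide arrays than on any vehicle array. The summed unscaled signal of the 4 tested members was 899, 769 and 435 on the vehicle arrays and 942, 485 and 583 on the thioacetamide arrays, which overlap. The summed signal of all 59 tested miRNAs was 13769 to 21081 in vehicle and 52019 to 89697 in thioacetamide. As a share of that sum, the 4 tested members held 4.86%, 3.65% and 3.16% in vehicle and 1.35%, 0.932% and 0.650% in thioacetamide. miR-106b alone held 1.62% ± 0.45 in vehicle and 0.29% ± 0.14 in thioacetamide, and miR-20a held 1.13% ± 0.26 and 0.33% ± 0.10 (SD, n = 3 each, exact permutation p = 0.1 for each). The lower shares were not particular to the members. The tested cluster mates miR-19a, miR-19b, miR-25 and miR-92a also had lower shares on all thioacetamide arrays (exact permutation p = 0.1 for each). Among them, miR-92a and miR-19b had unscaled means 3.02-fold and 2.28-fold higher in thioacetamide. How many of all 59 tested miRNAs separated in this way was not counted. The separations by share and their p values are therefore no result about the members or the mates. A share falls when other miRNAs gain signal. The liver list (5 of 6 miRNAs tested, 4 called higher) summed to 343 to 434 unscaled in vehicle and 29122 to 52609 in thioacetamide, so the shares say nothing of the members' own amounts.

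Blood cell markers were set beside the members because the family is expressed in blood-forming cells. Of the erythrocyte list (miR-451, miR-144, miR-16 and miR-486), 3 were on the array and 2 were tested. miR-451 fell on the scaled values (limma adjusted p = 0.0427, change in log2 of -1.31 ± 0.34, SE, n = 3 per group) and miR-16 was at -1.13 ± 0.33 (0.0585), while miR-144 was detected on no array. The change of miR-451 was negative under all 31 alternatives (-2.70 to -0.19) but passed the threshold in 18 of them. Its limma adjusted p was 0.598 without scaling, 0.722 with spike-ins, 0.670 without the 3 clusters and 0.106 with the replicate block, and leaving out vehicle 1, vehicle 2, thioacetamide 2 or thioacetamide 3 alone gave 0.0647 to 0.122. The summed scaled signal of the list was 9125 to 11946 in vehicle and 4100 to 5071 in thioacetamide, which do not overlap. Unscaled it was 5711 to 11179 and 3262 to 11530, which do. Most of the sum is miR-451, with 8832 of 11946 on vehicle 1. miR-451 and miR-16 were thus lower on the same scaled arrays as miR-106b, both help to set the scale, and their part in the members' values was not tested. Of the leukocyte list 3 of 5 miRNAs were tested and of the platelet and endothelium list 3 of 7, with 0 called in either. Their summed scaled signals were 371 to 745 in vehicle against 396 to 478 in thioacetamide, and 273 to 334 against 326 to 1069. The tested names of the platelet and endothelium list differed in direction. Their log2 changes were 2.02 for miR-26a, 1.91 for miR-24 and -0.88 for miR-27a (limma adjusted p = 0.106, 0.0819 and 0.129). The other names of that list, miR-126, miR-126*, miR-221 and miR-222, were detected on no array.

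Outside the 3 clusters, the tested miRNAs whose scaled log2 signal followed a member most closely over the 6 arrays were mostly the same few. For miR-106b they were miR-16 (Pearson r = 0.90), miR-451 (0.89) and miR-15b (0.86), and for miR-20b-5p they were miR-451 (0.95), miR-16 (0.93) and miR-27a (0.90). For miR-20a they were let-7i (0.91), miR-15b (0.86) and miR-16 (0.78), and for miR-93 they were let-7i (0.95), miR-15b (0.85) and miR-494 (0.77). Among the members, miR-20b-5p and miR-106b correlated at 0.91, miR-20a and miR-106b at 0.90, miR-20a and miR-93 at 0.90, miR-20a and miR-20b-5p at 0.72, the cluster partners miR-93 and miR-106b at 0.67, and miR-20b-5p and miR-93 at 0.54. Unscaled, miR-93 and miR-106b correlated at 0.41. These are descriptions over 6 arrays, with the miRNAs outside the clusters chosen as the highest of 51. All values on an array share its scale factor, which miR-16 and miR-451 help to set, and its background. The arrays of both groups were pooled, so each r also reflects differences between the groups. After scaling, miR-106b, miR-20b-5p, miR-16, miR-451, miR-15b and miR-27a were each lower on all thioacetamide arrays than on any vehicle array.

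The cluster mates, which carry other seeds, did not pass the threshold either. Of 19 mates on the array, 15 were detected on none of the 6 arrays, and all 4 tested ones fell short. miR-92a, from both the chromosome 15 and the X clusters, had unscaled signals of 486, 620 and 364 in vehicle and 1548, 1168 and 1716 in thioacetamide, 3.02-fold higher and without overlap. miR-19b, from the same clusters, was 2.28-fold higher unscaled and also without overlap. Without scaling, the limma fit called 22 of the 59 tested miRNAs higher and 0 lower, with a median log2 change of 0.97. How many of the 59 separated on unscaled signal was not counted. miR-92a and miR-19b help to set the scale factors. Their scaled log2 changes were 0.85 ± 0.45 (SE, 3 arrays per group, limma adjusted p = 0.220) and 0.45 ± 0.38 (0.408). miR-20a, from the same chromosome 15 transcript, had an unscaled ratio of 1.12 as given above. miR-25 and miR-19a had scaled log2 changes of -0.23 each (limma adjusted p = 0.691 and 0.762).

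The 2 probes of a member did not see it equally. For all 6 members the longer probe was detected on more arrays than the shorter one. For miR-93 the longer probe was detected on 4 arrays and read 76.2 to 182, while the shorter one, a single base shorter, was detected on 0 and read -17.1 to 17.0. For miR-106b the longer probe read 287, 229 and 139 in vehicle and 251, 122 and 97.9 in thioacetamide, and the shorter one 104, 84.3 and 33.5 in vehicle and 43.1, 42.4 and 31.4 in thioacetamide. The signal of miR-93, miR-17-5p and miR-18a was thus carried by 1 probe each.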

How the data were processed

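Plasma miRNAs of 3 vehicle and 3 thioacetamide rats were read on 1-colour Agilent arrays. The deposited intensity values are background-subtracted spot signals, which the submitters' processing notes credit to Agilent Feature Extraction, version 10.7.3.1, neither scaled nor logged. Spots with an outlier mark and control spots were left out. Unmarked spots were averaged per probe, probes summed per miRNA, and each array divided by its 75th percentile over probes detected on all arrays. Values were then raised to a floor of 46.1 (5th percentile of detected sums), and log2 was taken. Per the file headers, a spot is well above background past a multiple of 13. Those detected on 3 or more arrays, 59 miRNAs, were fitted with limma 3.58.1 in R 4.3.3 (treatment only, 4 residual and 2.41 prior degrees of freedom, Benjamini-Hochberg adjustment, threshold 0.05). Ratios and shares had exact permutation tests, two-sided. The code was tested on simulated data. Alternatives covered scaling, background, floor, filter, detection call, probe summary, blocks and left-out arrays. The number of arrays limits the precision.

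All 6 members are named whatever their values, as are cluster mates detected on any array and, for each tested member, the 3 most correlated miRNAs outside the clusters. The members and lists were chosen with earlier results of these data known.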

Additional observations from a re-analysis of the deposited data

How the results depend on the processing

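miR-106b had a negative log2 change under all 30 alternatives (-2.31 to -0.22) and passed the limma threshold in 8. Besides the fits given above without arrays, these were scaling to the median of commonly detected miRNAs (-1.71), a floor 4 times as high (-0.90), the brightest probe (-1.30) and columns 3 and 4 alone (-1.50), with 1 member called in each. The last has a single vehicle array, assumed to vary like the others. A floor 4 times as high put miR-20b-5p and miR-93 at 0, since all their values then lay at the floor. miR-20b-5p passed at -0.60 with miRNAs detected on at least 1 array, the 1 member called there, with an SE of 0.13 (0.32 in the reported fit). The reversed values were 0.19, 0.15 and 0.27 for miR-20a, miR-20b-5p and miR-93 without scaling, 0.36, 0.27 and 0.39 with spike-ins, and 0.56, 0.52 and 0.63 without the 3 clusters. The members' median was 0.17, 0.32 and 0.54 in these settings, -0.95 with the median scaling, -0.18 with the high floor, and -1.34 without vehicle 3 and thioacetamide 1 together, where the 4 members were called at -2.21, -1.28, -1.40 and -1.18. The cause of these shifts was not tested.

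The number of tested miRNAs called, 10 in the reported fit, was 22 without scaling, 3 with all probes, 16 with spike-ins or the median, 23 without the clusters, 6 with normexp, 19 with detection on at least 1 array, 2 with detection on all arrays or no filter, 17 with the brightest probe, 0 in columns 1 and 2 and 37 in columns 3 and 4, where 1 group has a single array and the counts are no measure of stability. It was 29 without vehicle 3 and thioacetamide 1, and 21 with the processing of 6 arrays kept. The share of higher among the calls was 90% in the reported fit, 100% without scaling, with all probes, with spike-ins or without the clusters, 71.4% with quantile scaling and 75% with the median. Members detected on all arrays numbered 0, so that filter gives no member value.

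With 1 array left out at a time, the change was -2.31 to -1.12 for miR-106b, -1.50 to -0.47 for miR-20a, -1.36 to -0.53 for miR-20b-5p and -1.46 to -0.35 for miR-93, with a members' median of -1.48 to -0.49, 0 to 2 members called and 6 to 25 of all tested called. miR-20b-5p was tested in 3 of these 6 fits (without vehicle 2, vehicle 3 or thioacetamide 1), so medians and calls cover 3 members in the others. The lowest changes of each member came without vehicle 3. The ratio of miR-106b to miR-93 was at -1.06 to -0.47.

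With the replicate block, 10 of 59 miRNAs and 0 members were called, and miR-106b was at -1.35 (limma adjusted p = 0.114). The replicate numbers were not taken to pair animals, because nothing in the labels says that they do. Deviations of same-numbered arrays correlated at -0.70, -0.31 and -0.66. Each such pair lay on opposite sides of the slide, so these correlations cannot decide whether animals were paired.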
